A study of Homo sapiens with 13 samples.

Results

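The genes described here are the nuclear genes for subunits of the last 3 enzymes of oxidative phosphorylation: 9 genes of complex III (UQCRB, UQCRC1, UQCRC2, UQCRFS1, UQCRH, UQCRQ, UQCR10, UQCR11 and CYC1), 11 of complex IV (COX4I1, COX5A, COX5B, COX6A1, COX6B1, COX6C, COX7A1, COX7A2, COX7B, COX7C and COX8A) and 15 of ATP synthase (ATP5F1A to ATP5F1E, ATP5PB, ATP5PD, ATP5PF, ATP5PO, ATP5MC1 to ATP5MC3, ATP5ME, ATP5MF and ATP5MG). They were taken by name, not by any measured value, though with earlier results of these data known. They are 35 of the 63241 gene IDs counted. All but COX7A1 passed the filter on low counts, which left 34 of these genes among 16756 tested.

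Messenger RNA was sequenced from AC16, a human line derived from ventricular heart muscle cells fused with a transformed fibroblast line. There were 3 libraries of preconditioning+FCCP, 4 of preconditioning, 3 of FCCP and 3 of control cells, all labelled wildtype. FCCP is a protonophore that collapses the proton gradient across the inner mitochondrial membrane, and the series title and design text name the preconditioning as optogenetic, with a construct called mOpto. The labels do not state whether control and FCCP cells held the construct or saw light, and give no dose or time.

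Complex III (cytochrome bc1) passes electrons from ubiquinol to cytochrome c, complex IV (cytochrome c oxidase) passes them on to oxygen, and both pump protons. ATP synthase lets the protons flow back and makes ATP with the energy. Heart muscle is among the tissues richest in these enzymes. Each enzyme joins membrane protein encoded by mitochondrial DNA with subunits made from nuclear genes and imported. In ATP synthase the imported ones include the whole catalytic head.

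Promoters of many of these genes are known targets of NRF1, of ETS family factors such as GABPA, and of YY1. Of the 35 genes, 27 matched an entry among the RefSeq promoters (GRCh38.p14), each running from 250 bases before to 50 bases after a gene's start. UQCRB, CYC1, COX6C, COX7A1, ATP5F1B, ATP5F1D, ATP5MC3 and ATP5MF had no entry used here. Shown first is COX6A1, which changed most among the complex IV genes with preconditioning, then UQCRQ of complex III and ATP5PD of ATP synthase, which also fell, and then UQCRC1, which did not. They lie at chr12:120437863-120438162 (plus strand), chr5:132866392-132866691 (plus), chr17:75046920-75047219 (minus) and chr3:48609597-48609896 (minus). Capitals mark the motif matches described after them.

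COX6A1: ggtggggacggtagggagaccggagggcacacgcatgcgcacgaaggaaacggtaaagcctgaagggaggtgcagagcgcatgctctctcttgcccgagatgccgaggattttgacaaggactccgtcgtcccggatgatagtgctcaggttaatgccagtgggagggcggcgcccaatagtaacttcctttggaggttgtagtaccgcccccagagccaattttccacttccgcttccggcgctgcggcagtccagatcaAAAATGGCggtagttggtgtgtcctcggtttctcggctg

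UQCRQ: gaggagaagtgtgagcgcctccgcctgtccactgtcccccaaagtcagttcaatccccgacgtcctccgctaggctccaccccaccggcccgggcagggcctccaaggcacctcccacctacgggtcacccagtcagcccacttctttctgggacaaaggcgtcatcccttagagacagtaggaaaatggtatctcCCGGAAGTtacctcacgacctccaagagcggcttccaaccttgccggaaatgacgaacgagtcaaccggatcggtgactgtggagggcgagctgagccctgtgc

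ATP5PD: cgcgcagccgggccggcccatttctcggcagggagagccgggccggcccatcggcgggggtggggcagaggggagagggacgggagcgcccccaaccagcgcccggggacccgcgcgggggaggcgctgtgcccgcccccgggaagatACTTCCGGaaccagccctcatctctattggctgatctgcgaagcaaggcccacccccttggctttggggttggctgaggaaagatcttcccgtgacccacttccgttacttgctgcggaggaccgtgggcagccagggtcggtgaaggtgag

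UQCRC1: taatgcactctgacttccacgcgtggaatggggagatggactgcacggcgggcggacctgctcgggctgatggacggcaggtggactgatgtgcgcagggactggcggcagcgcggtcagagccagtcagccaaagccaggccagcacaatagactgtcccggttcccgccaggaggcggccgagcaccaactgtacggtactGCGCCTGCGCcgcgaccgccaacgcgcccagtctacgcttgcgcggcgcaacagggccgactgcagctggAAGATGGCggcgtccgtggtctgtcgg

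The motifs searched, on both strands, were CCGGAAGT for the ETS family, GCGCA and GCGC parted by any 1 base for NRF1 and AANATGGC for YY1. The ETS letters were in 8 of the 27 promoters and in 4.14% of all 35116 promoters, the NRF1 letters in 7 of 27 and in 5.78%, and the YY1 letters in 11 of 27 and in 6.58%. Matches of different motifs were counted separately. In the sequences shown, COX6A1 holds a YY1 match just after the start of the gene, UQCRQ and ATP5PD hold an ETS match each, and UQCRC1 holds an NRF1 and a YY1 match. Genes that fell and genes that did not thus both carried matches, and a match describes letters, not a site in use.

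The libraries held 14970803 to 20636229 gene counts, and the 35 genes took 0.359% to 0.679% of them. Levels below are CPM, the counts of a gene after libraries were scaled to a common total. Each difference is a log2 value, followed by its standard error (SE), and a gene is said to have risen or fallen where the adjusted p of edgeR's quasi-likelihood test, corrected over the 16756 genes, was under 0.05. The labels do not tell whether the replicates of a group were separate cultures, so the p-values reflect a spread among libraries that could be technical. In bulk RNA, fewer cells of a kind and less RNA per cell cannot be told apart.

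The libraries fell into 2 sets by the percentage of their reads that aligned to more than 1 place. It was 7.13% to 11.5% in preconditioning+FCCP 3, FCCP 1 to 3 and control 1 and 2, called here the higher-share set. The percentage was 3.16% to 5.22% in preconditioning+FCCP 1 and 2, preconditioning 1 to 4 and control 3, called the lower-share set. The mean log2 CPM of the 34 tested genes was 6.52 to 7.07 in the 6 higher-share libraries and 5.80 to 6.30 in the 7 lower-share libraries, so the sets did not overlap. Control 3 was the lowest control library for 24 of the 34 genes, against 40.7% of all tested genes, and preconditioning+FCCP 3 was the highest of its group for 30 of 34, against 41.5%. All preconditioning libraries lay in one set and all FCCP libraries in the other. The result for the 34 genes as a whole, and for some single genes, is therefore also given within a set where that exists. The other gene lists are given without it. Where a group has a lone library in a set, its spread is not measured there and only effect sizes are given. The part of whatever parts the sets was not otherwise tested.

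**Figure D1:**
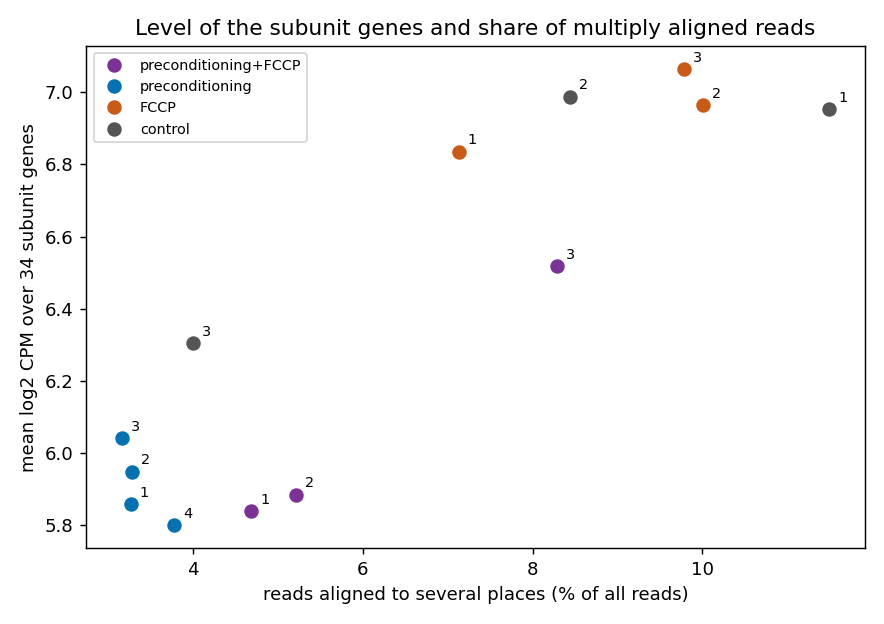
Mean log2 CPM of the 34 tested subunit genes (y axis) against the percentage of all reads aligned to several places (x axis), 1 numbered point per library, coloured by group. The 6 libraries at 7.13% or more sit between 6.52 and 7.07, and the 7 libraries at 5.22% or less between 5.80 and 6.30.

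The label myocyte was set against 19 heart muscle markers. Their summed level was 7.24 to 9.00 CPM in preconditioning+FCCP, 6.27 to 12.2 in preconditioning, 4.86 to 10.5 in FCCP and 10.3 to 14.0 in control libraries. Only 6 of the 19 passed the filter, TNNT2 was at 0 in every library, and the contractile genes MYH6 and MYH7 averaged at most 0.09 CPM in any group. The 5 endothelial markers summed to 2.59 to 4.69 CPM in preconditioning+FCCP, 20.9 to 25.8 in preconditioning, 8.95 to 13.9 in FCCP and 7.29 to 16.3 in control libraries. The 5 immune markers, 2 of them at 0 in every library, summed to 1.60 to 3.33, 2.10 to 3.22, 6.38 to 8.84 and 1.38 to 5.27 CPM in the same order of groups. The 12 fibroblast markers were all tested and summed to 2708 to 4368 CPM in preconditioning+FCCP, 9461 to 10074 in preconditioning, 9133 to 10724 in FCCP and 7418 to 14537 in control libraries. COX7A1, the complex IV isoform gene of heart and skeletal muscle, had 0 counts in all preconditioning+FCCP and control libraries and in FCCP 1, which allows up to 0.123 to 0.208 CPM. It had 2 to 4 counts in preconditioning libraries, and 2 and 5 in FCCP 2 and 3. Of the 13 libraries, only FCCP 3 (5 counts) and preconditioning 2 (4 counts) were above the floor of 3 counts. COX7A1 did not pass the filter on low counts, and its ubiquitous counterpart COX7A2 was compared.

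Per kilobase of transcript, the median level over all libraries was highest for COX4I1, a regulatory subunit of complex IV, at 443 CPM per kb, followed by the catalytic beta subunit gene ATP5F1B at 314, COX7C at 274 and UQCRH at 264. At the other end were UQCR11 at 16.9, the peripheral stalk gene ATP5PO at 15.9 and ATP5ME, for the small membrane subunit e, at 2.05 CPM per kb. ATP5ME shared 49.9% of its exon bases with MYL5 and had only 7 to 85 counts per library. ATP5PO shared 70.3% of its exon bases with another annotated gene, COX8A 34.5%, ATP5PF 31.1%, COX6A1 30.6% and UQCRQ 30.0%. COX6C had 17 annotated pseudogene copies, and COX6B1, ATP5F1A, ATP5PB and ATP5MC1 had 7 each. Levels of these genes are less certain than the others.

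As summed levels, the genes of complex IV averaged 1242 ± 405 CPM in preconditioning+FCCP, 939 ± 66.2 in preconditioning, 2322 ± 190 in FCCP and 2036 ± 684 in control libraries (SD, n = 3, 4, 3 and 3). Those of complex III averaged 956 ± 189, 901 ± 79.6, 1527 ± 167 and 1277 ± 192 CPM in the same order of groups. Those of ATP synthase averaged 1636 ± 331, 1863 ± 204, 2659 ± 204 and 2407 ± 370 CPM. The group means of every complex were thus lower in both groups with preconditioning than in both without it. Single libraries overlapped in each complex. For ATP synthase, preconditioning 3 had 2153 CPM and preconditioning+FCCP 3 had 2015, against 2061 CPM in control 3. Preconditioning+FCCP 3 had 1174 CPM for complex III, against 1062 in control 3, and 1709 CPM for complex IV, against 1247 in control 3. For complex IV, control 3 had 1247 CPM, against 2438 and 2424 CPM in control 1 and 2.

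**Figure D2:**
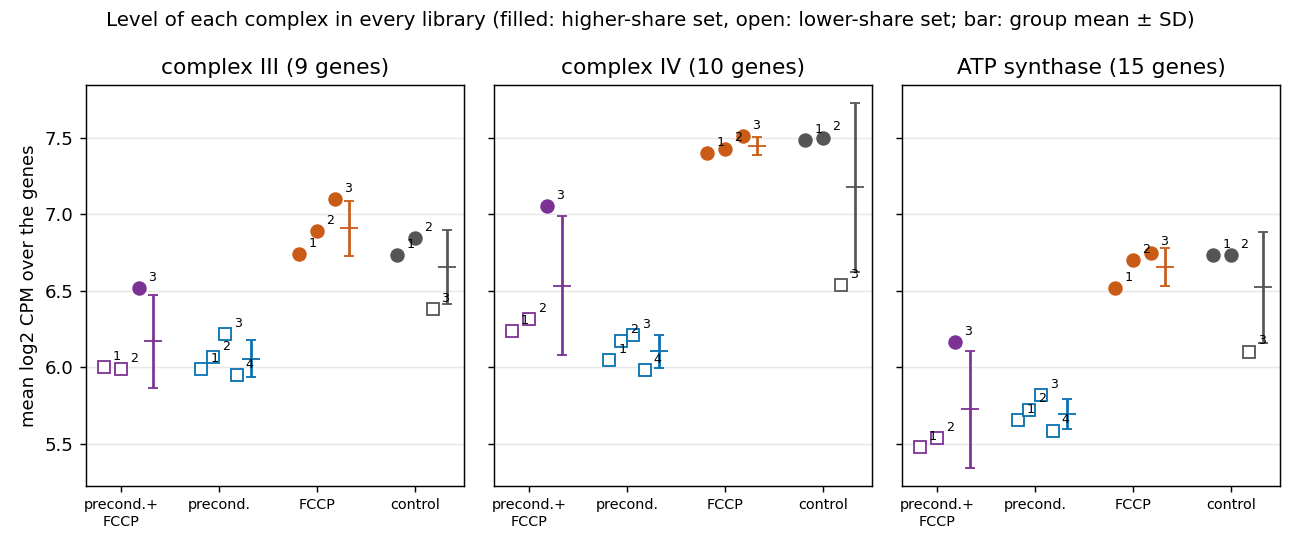
Mean log2 CPM over the tested genes of complex III, complex IV and ATP synthase (y axis) in each numbered library of the 4 groups (x axis), with group mean and SD as bars. Filled circles are higher-share libraries and open squares lower-share libraries, and in all 3 panels control 3 and preconditioning+FCCP 3 lie apart from the rest of their groups.

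Preconditioning against control asks what the optogenetic treatment alone did. Of the 34 genes, 22 fell and 0 rose, where 23.6% of all tested genes were called, 13% as lower. The fallen genes were 8 of 10 in complex IV, 10 of 15 in ATP synthase and 4 of 9 in complex III. Median changes were -1.24 for complex IV, -0.81 for ATP synthase and -0.42 for complex III, against -0.02 over all genes tested; differences between the complexes were not tested. In 23 of the 34 genes every preconditioning library lay below every control library, as was so for 17.3% of all genes. Among higher estimates, 1 gene had an unadjusted p under 0.05 in edgeR, DESeq2 called 0 higher and limma-voom 1. Of the 4 tested endothelial markers 2 rose in this comparison, VWF (2.89 ± 0.72) and TEK (0.99 ± 0.31), and the summed endothelial levels given above did not overlap. Of 12 fibroblast markers 1 fell, and of 6 tested heart muscle markers 1 fell. The part of these markers in the result was not tested.

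In complex IV, COX6A1, a subunit at the contact between the monomers of the dimer, had 8.12, 9.83, 9.47 and 7.80 CPM in preconditioning libraries, against 57.7, 45.5 and 14.1 CPM in control libraries. The groups did not overlap, but control 3 was much nearer to the preconditioning libraries than to the other controls. The change was -2.15 ± 0.35 (adjusted p = 0.00212), the largest of complex IV. COX5B, the zinc-binding subunit, had 98.8, 104, 116 and 102 CPM in preconditioning libraries, against 387, 380 and 145 CPM in control libraries, a fall of 1.53 ± 0.28 on the log2 scale (adjusted p = 0.00283). Again the groups were apart and control 3 was the lowest control. The other complex IV genes that fell were COX6C (-1.67), COX7C (-1.40), COX7B (-1.24), COX6B1 (-1.24), COX8A (-0.998) and COX4I1 (-0.96). COX7A2 was at -0.49 ± 0.18 (adjusted p = 0.057) and COX5A at -0.03 ± 0.19 (adjusted p = 0.937), neither of which passed.

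In complex III, the genes that fell encode small accessory subunits. UQCRB, which contacts cytochrome b, had 60.6, 68.1, 78.7 and 62.9 CPM in preconditioning libraries, against 338, 284 and 102 CPM in control libraries (log2 change -1.84 ± 0.35, adjusted p = 0.00311). UQCRQ, a small membrane subunit, had 38.3, 43.5, 40.7 and 31.1 CPM in preconditioning libraries, against 147, 128 and 60.9 CPM in control libraries (-1.54 ± 0.29, adjusted p = 0.00311). Neither pair of groups overlapped, and control 3 was the nearest control in both. UQCR10 (-1.21) and the hinge protein gene UQCRH (-0.91) also fell. The genes of the large and redox-active subunits did not pass: the core protein genes UQCRC1 and UQCRC2 were at 0.11 ± 0.15 and -0.37 ± 0.16, the cytochrome c1 gene CYC1 at -0.16 ± 0.20 and the Rieske iron-sulfur gene UQCRFS1 at 0.52 ± 0.20 (adjusted p = 0.620, 0.112, 0.593 and 0.0669).

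In ATP synthase, 10 of 15 genes fell, none of them the alpha or beta gene. Of the catalytic head, ATP5F1A (alpha) was at 0.17 ± 0.17 and ATP5F1B (beta) at 0.07 ± 0.17 (adjusted p = 0.496 and 0.811), and neither passed. The central stalk genes ATP5F1C (gamma), ATP5F1D (delta) and ATP5F1E (epsilon) fell by 0.78, 0.81 and 0.76. Of the peripheral stalk, ATP5PD (-1.63), ATP5PO (-1.47) and ATP5PF (-1.01) fell, while ATP5PB was at -0.11 ± 0.17. The membrane subunit genes ATP5ME, ATP5MF and ATP5MG, for subunits e, f and g, fell by 2.30 ± 0.47, 1.79 ± 0.32 and 1.73 ± 0.33. ATP5PD had 26.1, 36.3, 31.8 and 26.6 CPM in preconditioning libraries, against 129, 101 and 50.3 CPM in control libraries, and ATP5MF had 14.9, 19.3, 16.4 and 14.4 CPM, against 83.1, 61.2 and 24.3 CPM (adjusted p = 0.0025 and 0.00269). ATP5ME, the least expressed, had 0.748, 0.398, 0.533 and 0.572 CPM in preconditioning libraries, against 4.87, 2.25 and 1.25 CPM in control libraries (adjusted p = 0.0045). The groups were apart for all 3 genes, and control 3 was the lowest control each time.

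The 3 genes of the c ring, ATP5MC1, ATP5MC2 and ATP5MC3, encode the same mature protein with different import sequences, and their estimates differed. ATP5MC2 fell by 0.89 ± 0.22, with 127, 143, 138 and 138 CPM in preconditioning libraries, against 246, 339 and 175 CPM in control libraries (adjusted p = 0.0111). ATP5MC1 was at -0.43 ± 0.18, with 72.1, 80.6, 83.7 and 70.9 CPM against 94.9, 104 and 113 CPM (adjusted p = 0.0961). ATP5MC3 was at -0.0020 ± 0.15, with 141, 141, 168 and 129 CPM against 127, 148 and 160 CPM (adjusted p = 0.994). The first pair of these genes had groups that did not overlap, and ATP5MC3 had groups that did; differences between the 3 genes were not tested.

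**Figure D3:**
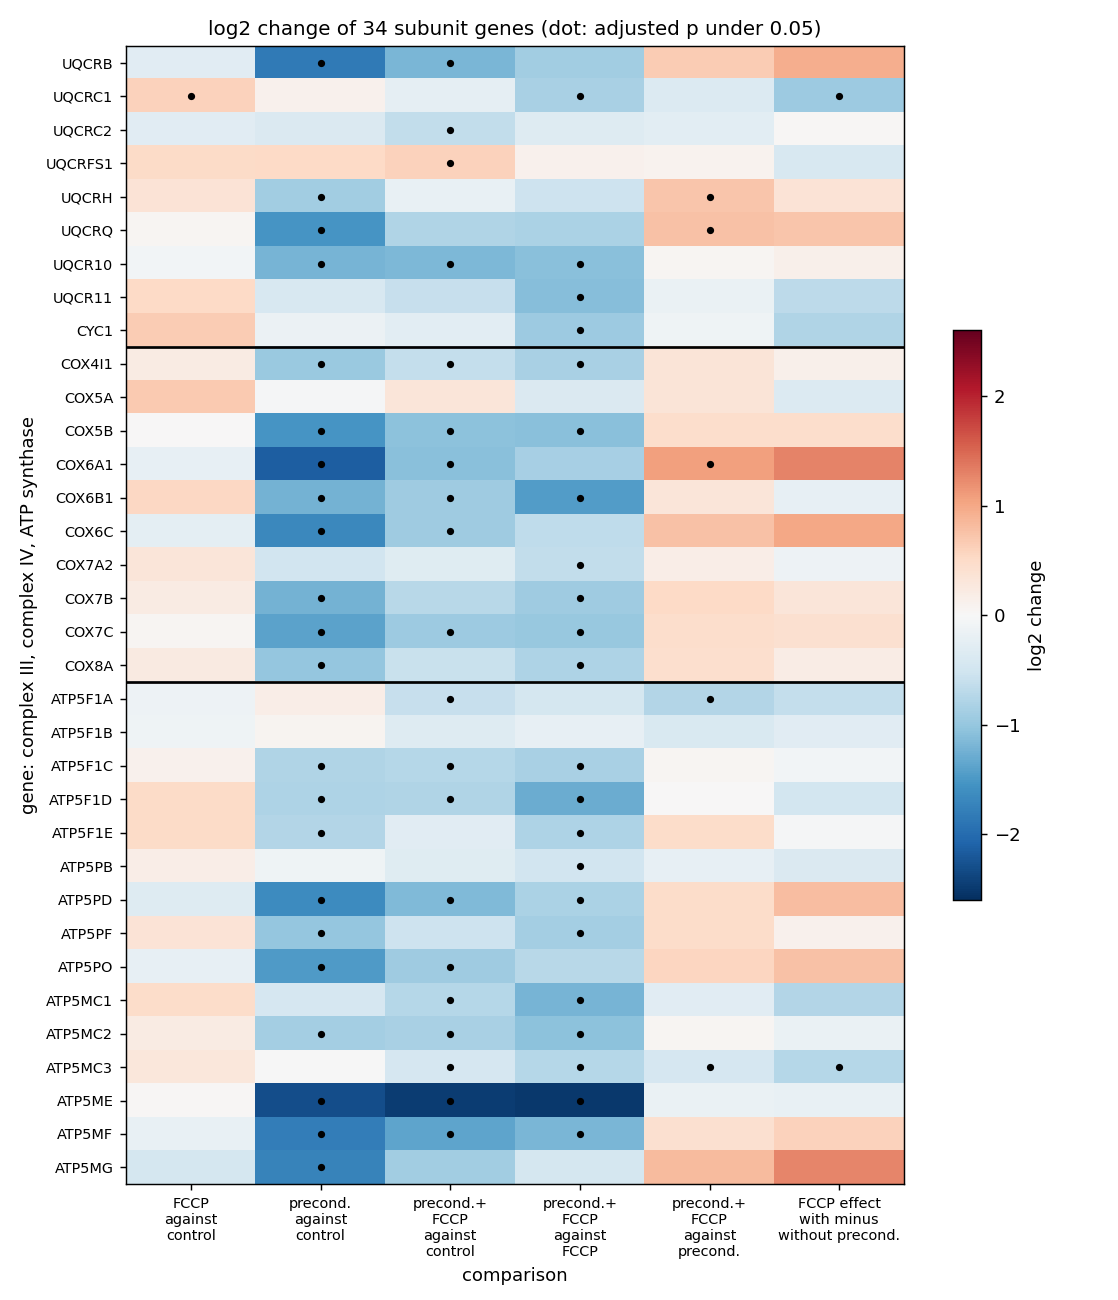
Log2 change of the 34 tested genes (rows, grouped as complex III, complex IV and ATP synthase) in the 6 comparisons (columns), blue for lower and red for higher, with a dot where the adjusted p was under 0.05. The column of preconditioning against control has 22 dots, all on lower values, and that of FCCP against control has 1.

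The genes that fell were more often those of short coding sequence, with exceptions at both ends; no test was made of this. Ranked by coding length, 10 of the 11 shortest genes (153 to 273 bases) fell, 8 of the middle 12 (294 to 504 bases), and 4 of the 11 longest (507 to 1659 bases). Median changes were -1.24, -1.27 and -0.16 in these classes. Across the 34 genes, Spearman's rank correlation between coding length and log2 change was 0.54 (Pearson's r 0.59), and with transcript length 0.62 (0.71); genes share their libraries and are not independent replicates, so these are descriptions. The exception among the shortest was UQCR11 (-0.42 ± 0.27, adjusted p = 0.26), and among the longest ATP5PO, COX4I1, ATP5MC2 and ATP5F1C fell. When each library was corrected for a trend on the length and GC content of genes, 15 of the 22 genes were called, all lower, with a median of -0.48 over the 34, where 15.1% of all genes were called.

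**Figure D4:**
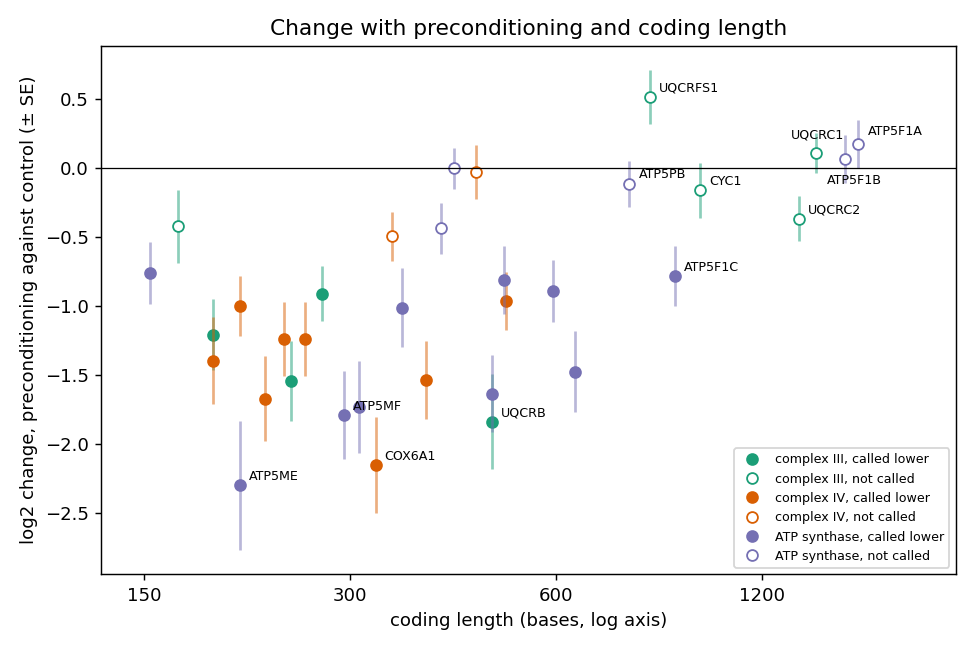
Log2 change of preconditioning against control with its SE (y axis) against coding length in bases on a log axis (x axis) for the 34 genes, filled where the gene fell and open where it was not called. The genes of at least 1359 bases lie between -0.37 and 0.17, while the 11 shortest range from -2.30 to -0.42.

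Within the lower-share set control 3 is the only control, so the spread among controls is not measured there and only effect sizes are given. The median of the 34 genes was -0.40 there, against -0.94 over all libraries. Of the 34 estimates 31 were below 0, and the share of all genes below 0 was not counted. COX6A1 was at -0.68 within this set, against -2.15 over all libraries. With a term for the set, UQCRB (-0.70 ± 0.17), COX6A1 (-1.05 ± 0.26) and ATP5PD (-0.83 ± 0.20) were called, with adjusted p = 0.0418, 0.0464 and 0.0395, against 2.74% of all genes. Leaving out each library in turn gave 17 to 25 called genes, and 16 of the 22 were called every time. Without control 1, or without control 2, 17 were called, and without control 3, 25, of which 1 was higher. Of all genes, 8.68%, 11% and 34.8% were called without control 1, 2 and 3.

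Preconditioning+FCCP against FCCP asks the same of stressed cells. Again 22 of 34 genes fell and 0 rose, where 35.7% of all tested genes were called, 17.7% as lower. They were 11 of 15 in ATP synthase, 7 of 10 in complex IV and 4 of 9 in complex III, with medians of -0.83, -0.85 and -0.84, against 0.01 over all genes tested. In 27 of the 34 genes all preconditioning+FCCP libraries lay below all FCCP libraries, as for 21.3% of all genes. No gene was higher at an unadjusted p under 0.05 in edgeR or called higher by DESeq2 or limma-voom. Fibroblast markers were also lower in this comparison, with 10 of 12 called (COL1A1 at -2.72 ± 0.28), and the summed fibroblast levels given above did not overlap. Of 4 endothelial markers 2 fell, and of 2 tested immune markers 1 fell. Of 6 tested heart muscle markers 1 rose and 1 fell. The part of these differences in the subunit levels was not tested.

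In complex III, UQCRC1 had 170, 153 and 153 CPM in preconditioning+FCCP libraries, against 263, 267 and 319 CPM in FCCP libraries, with no overlap and a fall of 0.84 ± 0.16 (adjusted p = 0.00131). CYC1 had 173, 167 and 238 CPM, against 286, 353 and 469 CPM, again apart, a fall of 0.94 ± 0.22 (adjusted p = 0.00411). UQCR11 (-1.11) and UQCR10 (-1.08) fell as well. UQCRB was at -0.90 ± 0.37 and UQCRQ at -0.82 ± 0.31, which did not pass (adjusted p = 0.0703 and 0.0506).

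In complex IV, COX6B1, the subunit that faces the cytochrome c side, had 85.1, 83.2 and 175 CPM in preconditioning+FCCP libraries, against 284, 316 and 342 CPM in FCCP libraries (-1.46 ± 0.30, adjusted p = 0.0020). COX4I1 had 306, 280 and 419 CPM, against 590, 513 and 693 CPM (-0.84 ± 0.23, adjusted p = 0.0103). Both were apart, and preconditioning+FCCP 3 was the nearest to the FCCP libraries. COX7A2 had 79.2, 80.7 and 122 CPM, against 140, 148 and 149 CPM, also apart (-0.63 ± 0.19, adjusted p = 0.0195). COX5A, COX6A1 and COX6C were the members of complex IV that did not pass, at -0.38, -0.87 and -0.66.

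All 3 c-ring genes fell. ATP5MC1 had 57.5, 55.1 and 75.0 CPM in preconditioning+FCCP libraries, against 110, 132 and 189 CPM in FCCP libraries (-1.20 ± 0.20, adjusted p = 0.000681). ATP5MC2 had 117, 118 and 188 CPM, against 251, 277 and 353 CPM (-1.06 ± 0.24, adjusted p = 0.00396). ATP5MC3 had 112, 101 and 108 CPM, against 160, 196 and 178 CPM (-0.73 ± 0.16, adjusted p = 0.00328). No library of one group reached the other in any of the 3. The central stalk gene ATP5F1D had 101, 97.6 and 188 CPM, against 286, 277 and 376 CPM (-1.28 ± 0.27, adjusted p = 0.00235). ATP5ME had 0.405, 0.370 and 0.734 CPM, against 2.29, 3.36 and 2.90 CPM, the largest change at -2.50 ± 0.52 (adjusted p = 0.00242), and both genes had groups apart. ATP5F1A, ATP5F1B, ATP5PO and ATP5MG did not pass, at -0.45, -0.22, -0.72 and -0.46.

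By coding length, 8 of the 11 shortest, 8 of the middle 12 and 6 of the 11 longest genes fell. Within the higher-share set, where preconditioning+FCCP 3 stands alone, 33 of 34 estimates were below 0, with a median of -0.38. The median over all libraries was -0.84. With a lone preconditioning+FCCP library in this set, only effect sizes are given. UQCRC1 was at -0.89 and ATP5MC1 at -0.94. With a term for the set 9 fell, where 21.7% of all genes were called, and with the length and GC trend taken out 13, where 30.3% were. The genes called were all lower, while these shares over all genes count calls in either direction. The share of lower calls alone was not counted for these settings. Leaving out single libraries gave 10 to 29 calls, 9 of the 22 genes being called every time (UQCRC1, UQCR10, CYC1, COX6B1, ATP5F1D, ATP5MC1, ATP5MC2, ATP5MC3 and ATP5ME). The count was 12 without FCCP 3, 12 without preconditioning+FCCP 1 and 10 without preconditioning+FCCP 2, where 22.1%, 25.3% and 22.6% of all genes were called.

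FCCP against control left these genes mostly uncalled. UQCRC1 alone rose, and 0 of 34 fell, where 3.52% of all tested genes were called, 1.6% as higher; at an unadjusted p under 0.05 edgeR had 5 higher and 0 lower, DESeq2 called 3 higher and 0 lower, and limma-voom 1 higher and 0 lower. UQCRC1 had 263, 267 and 319 CPM in FCCP libraries, against 174, 182 and 206 CPM in control libraries, with no overlap, a rise of 0.60 ± 0.16 (adjusted p = 0.0478). CYC1 had 286, 353 and 469 CPM, against 194, 248 and 255 CPM, also without overlap, but did not pass (0.67 ± 0.21, adjusted p = 0.0939). COX5A had 160, 158 and 176 CPM, against 74.3, 89.1 and 143 CPM, without overlap. Its estimate was the largest of the 34 but did not pass (0.69 ± 0.21, adjusted p = 0.0769). Medians were 0.36 for complex III, 0.21 for complex IV and 0.11 for ATP synthase, against -0.04 over all genes. ATP5MC1, ATP5MC2, ATP5MC3 and COX7A2 were at 0.47 ± 0.20, 0.21 ± 0.24, 0.30 ± 0.16 and 0.31 ± 0.19, none of which passed (adjusted p = 0.195, 0.654, 0.314 and 0.376). Of the 4, only COX7A2 had FCCP libraries that were all above the controls.

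The call of UQCRC1 was lost when control 1, control 2, FCCP 2 or FCCP 3 was left out, with library totals as the only scaling, and with the length and GC trend taken out. Within the higher-share set, FCCP libraries against control 1 and 2, UQCRC1 rose by 0.67 ± 0.15 (adjusted p = 0.0158) and 6 more genes were called, where 8.71% of all genes were. UQCRFS1 (0.76), CYC1 (0.74) and COX5A (1.01) were higher there, and UQCRB (-0.65), COX6C (-0.64) and ATP5PD (-0.63) lower, with a median of -0.03 over the 34. Without control 3, FCCP 1 and preconditioning+FCCP 3, 6 genes were higher and 6 lower, where 18.1% of all genes were called.

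Preconditioning+FCCP against preconditioning asks what FCCP did in preconditioned cells. It moved single subunits in both directions: UQCRH, UQCRQ and COX6A1 rose and ATP5F1A and ATP5MC3 fell, 5 of 34, where 39.4% of all tested genes were called, 20.2% as higher and 19.2% as lower. The median of the 34 was 0.32, and those of complex III, complex IV and ATP synthase were 0.05, 0.44 and 0.05. Within the lower-share set these 4 medians were -0.08, -0.26, 0.15 and -0.22, and with a term for the set -0.04, -0.17, 0.10 and -0.23. UQCRH had 136, 140 and 242 CPM in preconditioning+FCCP libraries, against 101, 109, 110 and 99.0 CPM in preconditioning libraries (0.72 ± 0.20, adjusted p = 0.0103). COX6A1 had 13.3, 15.9 and 26.3 CPM, against 8.12, 9.83, 9.47 and 7.80 CPM (1.07 ± 0.35, adjusted p = 0.0234). Both were apart, with preconditioning+FCCP 3 the highest by far. UQCRQ had 41.6, 53.1 and 101 CPM, against 38.3, 43.5, 40.7 and 31.1 CPM, and its groups overlapped (0.76 ± 0.29, adjusted p = 0.0467).

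ATP5F1A, the alpha subunit of the head, had 157, 135 and 140 CPM in preconditioning+FCCP libraries, against 234, 239, 281 and 224 CPM in preconditioning libraries (-0.76 ± 0.18, adjusted p = 0.00324). ATP5MC3 had 112, 101 and 108 CPM, against 141, 141, 168 and 129 CPM (-0.44 ± 0.15, adjusted p = 0.0325). Both were apart. The c-ring genes ATP5MC1 and ATP5MC2 were at -0.30 ± 0.19 and 0.05 ± 0.22 and did not pass (adjusted p = 0.217 and 0.89). UQCRC1, CYC1 and COX7A2 did not pass either, at -0.35 ± 0.15, -0.11 ± 0.20 and 0.18 ± 0.18 (adjusted p = 0.0698, 0.687 and 0.458). Of the fibroblast markers 10 of 12, of the endothelial 2 of 4 and of the immune 1 of 2 fell as well, and their part was not tested.

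Within the lower-share set, preconditioning+FCCP 1 and 2 against all 4 preconditioning libraries, 3 genes rose and 3 fell, where 40.1% of all genes were called. COX6A1 rose by 0.73 ± 0.18 (adjusted p = 0.0055), UQCRH by 0.40 ± 0.13 and COX6C by 0.39 ± 0.13. ATP5F1A fell by 0.74 ± 0.18 (adjusted p = 0.00581), ATP5F1B by 0.51 ± 0.16 and ATP5MC3 by 0.44 ± 0.15. ATP5F1A was the only one of the 5 pooled calls that was made whichever library was left out. UQCRH lost its call without preconditioning+FCCP 3, COX6A1 without preconditioning+FCCP 3, preconditioning 1 or preconditioning 4, and ATP5MC3 without preconditioning+FCCP 2 or preconditioning 1, 2 or 3. UQCRQ kept its call only without preconditioning+FCCP 1.

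Preconditioning+FCCP against control sets both treatments together. Here 19 of 34 genes fell and 1 rose, where 31.2% of all tested genes were called, 16.2% as lower and 15% as higher. They fell in 10 of 15 genes of ATP synthase, 6 of 10 of complex IV and 3 of 9 of complex III (medians -0.73, -0.82 and -0.60, against -0.04 over all genes). In only 7 of the 34 did every preconditioning+FCCP library lie below every control, as for 18.2% of all genes. Of the 12 fibroblast markers 9 fell too, of 4 endothelial markers 1, and of 6 tested heart muscle markers 1. The part of these markers was not tested. UQCR10 had 10.9, 11.0 and 18.9 CPM in preconditioning+FCCP libraries, against 38.2, 35.8 and 17.3 CPM in control libraries, which overlap through control 3 (-1.16 ± 0.28, adjusted p = 0.00639). UQCRC2 had 119, 106 and 125 CPM, against 194, 215 and 141 CPM, without overlap (-0.65 ± 0.18, adjusted p = 0.0124). The gene that rose was UQCRFS1, with 130, 123 and 109 CPM, against 54.1, 78.3 and 106 CPM, apart by a narrow margin at control 3 (0.60 ± 0.21, adjusted p = 0.0381).

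COX5B had 110, 118 and 206 CPM in preconditioning+FCCP libraries, against 387, 380 and 145 CPM in control libraries, and COX6B1 had 85.1, 83.2 and 175 CPM, against 256, 267 and 126 CPM. Both overlapped, with falls of 1.07 ± 0.30 and 0.92 ± 0.29 (adjusted p = 0.015 and 0.0259). ATP5ME had 0.405, 0.370 and 0.734 CPM, against 4.87, 2.25 and 1.25 CPM, and was apart (-2.47 ± 0.52, adjusted p = 0.00313). ATP5MF had 15.9, 18.4 and 31.0 CPM, against 83.1, 61.2 and 24.3 CPM, with an overlap at control 3 (-1.37 ± 0.35, adjusted p = 0.00842). The c-ring genes all fell, ATP5MC1 by 0.73 ± 0.20, ATP5MC2 by 0.84 ± 0.24 and ATP5MC3 by 0.44 ± 0.16 (adjusted p = 0.0124, 0.0158 and 0.0496). COX7A2, UQCRC1 and CYC1 were at -0.32 ± 0.19, -0.24 ± 0.16 and -0.27 ± 0.21 and did not pass (adjusted p = 0.222, 0.253 and 0.35).

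Within the higher-share set, preconditioning+FCCP 3 stands alone against control 1 and 2. Within the lower-share set, control 3 stands alone against preconditioning+FCCP 1 and 2. Only effect sizes are therefore given. In the higher-share set 30 of 34 estimates were below 0, while COX5A was at 0.80 and UQCRFS1 at 0.71. In the lower-share set 31 of 34 were below 0, and ATP5MC1 was at -0.9998. The median of the 34 was -0.49 in both sets, against -0.73 over all libraries. Leaving out single libraries gave 3 to 27 calls. There were 7 without control 1, 5 without control 2, 7 without preconditioning+FCCP 1 and 3 without preconditioning+FCCP 2. Of all genes 19.6%, 19.2%, 21.6% and 17.9% were called in these fits. Without control 3 there were 26 calls and without preconditioning+FCCP 3 there were 27, where 38.2% and 30.5% of all genes were called. UQCR10 and ATP5ME were called every time.

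The interaction, the FCCP effect with preconditioning minus that without it, was called for UQCRC1 and ATP5MC3, 2 of 34, where 19% of all tested genes were called, 9.6% with a negative difference. Of the 12 fibroblast markers 8, and of 4 endothelial markers 2, had a called negative difference. Of 6 tested heart muscle markers 1 had a called positive difference. The part of these markers was not tested. UQCRC1 was at 159 ± 9.79 CPM in preconditioning+FCCP against 202 ± 17.6 in preconditioning libraries, and at 283 ± 31.2 CPM in FCCP against 187 ± 16.9 in control libraries (SD, n = 3, 4, 3 and 3). The estimates of the FCCP effect on UQCRC1 thus had opposite signs, but the one in preconditioned cells did not pass. Their difference was -0.95 ± 0.22 (adjusted p = 0.00768). ATP5MC3 was at 107 ± 6.03 CPM in preconditioning+FCCP against 145 ± 16.7 in preconditioning libraries, and at 178 ± 18.1 CPM in FCCP against 145 ± 16.9 in control libraries, a difference of -0.73 ± 0.22 (adjusted p = 0.0313). CYC1 and ATP5MC1 had differences of -0.78 ± 0.29 and -0.77 ± 0.27 and did not pass (adjusted p = 0.073 and 0.0587). ATP5MC2 and COX7A2 were at -0.17 ± 0.33 and -0.14 ± 0.26 (adjusted p = 0.753 and 0.751).

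UQCRC1 kept its interaction call whichever library was left out, with estimates of -1.03 to -0.87, and with a term for the set (-0.95 ± 0.19, adjusted p = 0.00252). ATP5MC3 lost it when any of 7 libraries was left out: control 1, FCCP 2 or 3, preconditioning 1, 2 or 3, or preconditioning+FCCP 2. With the set term 8 genes were called, 4 in each direction, where 26.9% of all genes were. Of these, UQCRB (0.63), COX6A1 (1.04), COX6C (0.80) and ATP5MG (1.06) had positive differences, and UQCRC1, CYC1 (-0.78), ATP5MC1 (-0.77) and ATP5MC3 negative ones. The count was 9 without control 3, and 1 without control 1, FCCP 2, FCCP 3, any of preconditioning 1 to 3, or preconditioning+FCCP 2. Of all genes, 23% were called without control 3 and 11.6% to 14.3% in the fits with 1 call.

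**Figure D5:**
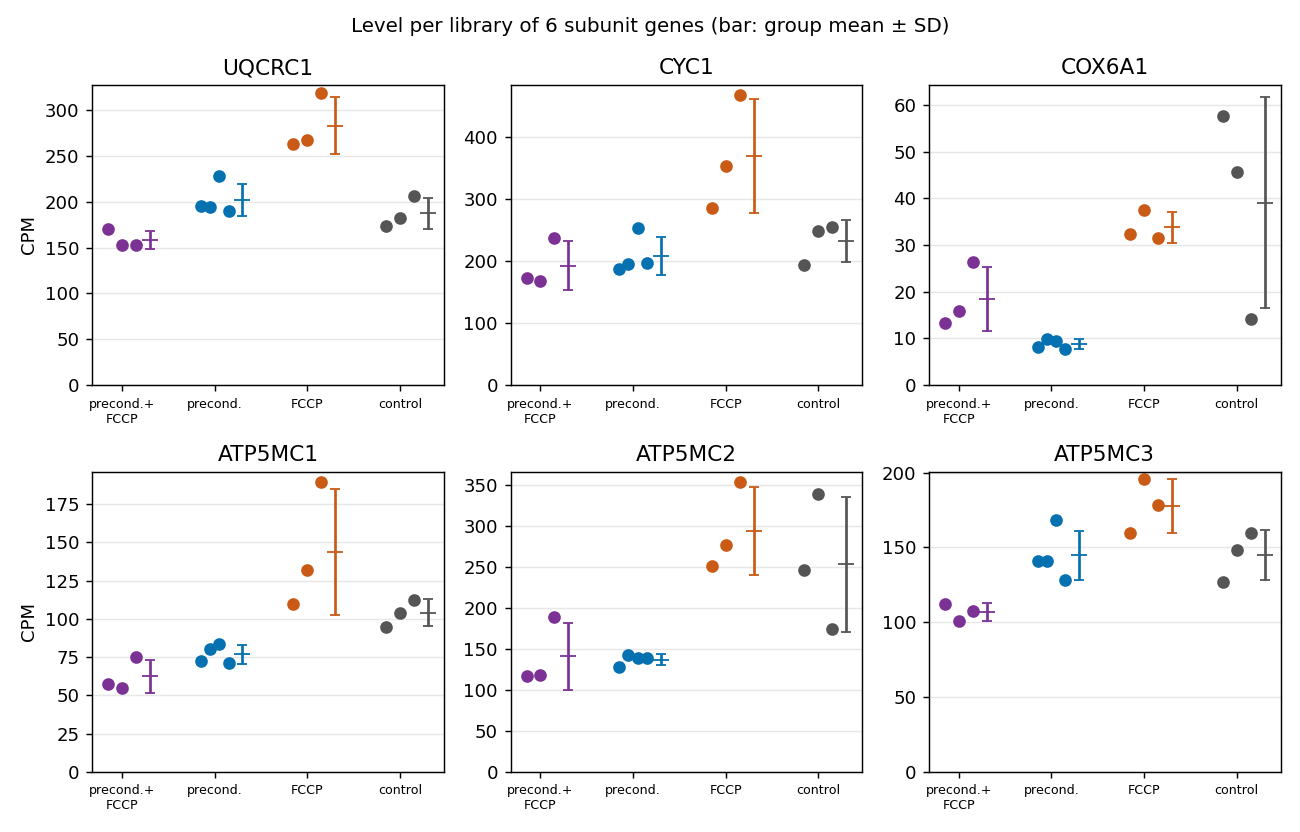
CPM in each library (y axis) of UQCRC1, CYC1, COX6A1 and the c-ring genes ATP5MC1, ATP5MC2 and ATP5MC3 in the 4 groups (x axis), with group mean and SD as bars. UQCRC1 is lowest in preconditioning+FCCP (153 to 170 CPM) and highest in FCCP libraries (263 to 319 CPM).

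Other genes of the same enzymes were counted from lists chosen by function. Over all tested genes, 13% were called lower in preconditioning against control. In preconditioning+FCCP 17.7% were called lower against FCCP. Against preconditioning 19.2% were called lower and 20.2% higher, and against control 16.2% lower and 15% higher. Called either way were 35.7% against FCCP, 39.4% against preconditioning and 31.2% against control. In FCCP against control 3.52% were called either way, and in the interaction 19%. The counts of each list are to be read against these shares. Of the 6 tested mitochondrially encoded subunits, 4 fell in preconditioning against control, among them MT-CYB, the cytochrome b of complex III (-2.62 ± 0.54), MT-CO3 of complex IV (-2.45 ± 0.54) and MT-ATP6 of ATP synthase (-2.18 ± 0.47). MT-CYB averaged 847 ± 111 CPM in preconditioning and 5201 ± 3005 CPM in control libraries (SD, n = 4 and 3), with 1781 CPM in control 3. In preconditioning+FCCP against FCCP 1 of the 6 fell, MT-CO2 (-1.72 ± 0.56). In preconditioning+FCCP against preconditioning 1 rose, MT-ATP6 (1.70 ± 0.46), and in preconditioning+FCCP against control 2 fell, MT-CO2 (-3.13 ± 0.59) and MT-CO3 (-1.76 ± 0.58). Mitochondrially encoded genes took 9.58%, 8.95% and 3.00% of gene counts in control 1 to 3, and 1.33%, 2.32% and 6.42% in preconditioning+FCCP 1 to 3. They took 6.49%, 1.94% and 1.55% in FCCP 1 to 3 and 1.00% to 1.85% in preconditioning libraries. The part of the library sets in these changes was not tested. In FCCP against control edgeR called 0 of the 6, with 2 lower at an unadjusted p under 0.05, and in the interaction 0, with 3 positive at that p.

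Of 7 tested other nuclear subunits and isoforms, 4 fell in preconditioning against control, where 13% of all genes did, led by the small ATP synthase subunit genes ATP5MK (-1.61 ± 0.27) and ATP5MJ (-0.87 ± 0.20) and the ATP synthase inhibitor gene ATP5IF1 (-1.23 ± 0.30). In preconditioning+FCCP 4 fell against FCCP (17.7% of all genes), 3 against control (16.2%), and 1 fell and 2 rose against preconditioning (39.4% either way). DMAC2L, the coupling factor B of ATP synthase, fell in all 3 (-1.77 ± 0.30, -1.95 ± 0.30 and -1.71 ± 0.29), and its interaction was -1.53 ± 0.40 (adjusted p = 0.0159). The 2 that rose against preconditioning were ATP5MJ (0.85 ± 0.20) and COX7A2L (0.66 ± 0.15); COX7A2L is known for joining complexes III and IV into supercomplexes.

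Of 22 tested complex IV assembly genes, 7 fell in preconditioning against control, where 13% of all genes did, among them the copper chaperone gene COX17 (-2.05 ± 0.34), COA6 (-1.61 ± 0.27) and COA5 (-1.19 ± 0.26). In preconditioning+FCCP, 5 rose and 4 fell against FCCP, where COA3 was at -1.76 ± 0.30, and 8 rose and 2 fell against preconditioning, where COX19 was at 0.93 ± 0.18; called genes were 35.7% and 39.4% of all genes in these comparisons, near the shares in the list. Against control 1 rose and 5 fell. FCCP against control had CMC1 higher (0.93 ± 0.23) and COA7 lower (-0.92 ± 0.22), and the interaction COX19 positive (1.32 ± 0.26) and COA3 negative (-1.37 ± 0.40). Of 7 complex III assembly genes, UQCC2 fell in preconditioning against control (-1.80 ± 0.34), in preconditioning+FCCP against FCCP (-1.52 ± 0.37) and against control (-1.54 ± 0.37). The other calls in that list were TTC19, higher in preconditioning+FCCP against FCCP (0.71 ± 0.23), HCCS, higher against control (0.72 ± 0.25), and LYRM7, lower against preconditioning (-0.73 ± 0.19). Of 3 tested ATP synthase assembly genes, ATPAF2 (-0.80 ± 0.21) and TMEM70 (-0.59 ± 0.18) fell in preconditioning against control. In preconditioning+FCCP against preconditioning ATPAF2 (0.67 ± 0.21) and TMEM70 (1.03 ± 0.18), which helps assemble the c ring, rose, and TMEM70 also rose against FCCP (0.55 ± 0.20) and had a positive interaction (1.14 ± 0.27).

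Of the 5 genes of complex II and cytochrome c, 3 fell in preconditioning against control, where 13% of all genes did: SDHD (-0.84 ± 0.19), CYCS (-0.68 ± 0.18) and SDHA (-1.26 ± 0.43). In preconditioning+FCCP against preconditioning, where 39.4% of all genes were called, SDHD (0.81 ± 0.19) and CYCS (0.57 ± 0.18) rose and SDHC fell (-0.69 ± 0.18). SDHC also fell in preconditioning+FCCP against FCCP (-0.51 ± 0.19) and against control (-0.77 ± 0.19). Of 11 nuclear regulators of respiratory genes, edgeR called 0 in preconditioning against control, also with no correction, and 0 in FCCP against control, with 1 higher at an unadjusted p under 0.05. GABPA, whose family motif was searched above, rose in preconditioning+FCCP against FCCP (0.60 ± 0.19) and against control (0.55 ± 0.19), and had 92.7 ± 19.4 CPM in preconditioning+FCCP, 70.5 ± 3.48 in preconditioning, 61.3 ± 13.9 in FCCP and 63.3 ± 5.98 in control libraries (SD, n = 3, 4, 3 and 3). GABPA and the subunit gene ATP5PF overlap on opposite strands, and since no source used here states how strand was handled in counting, their reads may not have been told apart. GABPB1, the partner of GABPA, rose in preconditioning+FCCP against preconditioning (0.72 ± 0.24). TFB1M, a mitochondrial rRNA methyltransferase gene, fell in preconditioning+FCCP against preconditioning (-0.98 ± 0.24) and against control (-0.76 ± 0.26).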

How the data were processed

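The deposited values were raw read counts per Ensembl gene ID in 13 libraries. HISAT2, HTSeq and the build hg19 are listed, with no version, per the submitters' processing notes. Per the labels' protocols, poly-T beads selected the mRNA; no source used here states how strand was handled in counting. Rows that name no gene entered neither library sizes nor tests: they held reads outside genes (2.13% to 5.20% of reads), reads overlapping more than 1 gene (11.0% to 12.4%) and reads aligned to more than 1 place (3.16% to 11.5%). The second kind bears on overlapping genes and the third on genes with pseudogene copies.

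From the deposited counts, all 13 libraries were fitted together with edgeR 4.0.16 (R 4.3.3), with its default filter on low counts, TMM scaling, a term per group and the quasi-likelihood test, Benjamini-Hochberg adjusted over 16756 genes. SEs were obtained from the log2 change and the square root of F. Lengths, overlaps and pseudogene copies came from GENCODE 29. Alternatives were other scalings (DESeq2 size factors, library totals, no mitochondrial genes) and filters, the tests of DESeq2 1.42.0 and limma-voom 3.58.1, the compared groups alone, a replicate block, a library set term, a length and GC trend (mgcv 1.9.3), 3 libraries left out, adjusted p under 0.01 and each library left out in turn. Fits within the sets were added after the data were seen. The functions were tested on simulated data.

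The subunit genes, the other lists and the tests were chosen with earlier results of these data known. Named in full were, per comparison and complex, the 2 called genes with the smallest adjusted p, the called gene of largest change, any called gene against its complex, and, in every comparison, the c-ring genes, COX7A1, COX7A2, CYC1 and UQCRC1; other lists give counts and up to 3 called genes. No libraries of a group agreed within sampling noise (lowest chi-square per degree of freedom 3.32).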

Additional observations from a re-analysis of the deposited data

Results flagged for a closer look

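Among the 4 preconditioning libraries, a single library stood far from the other 3 for 4 genes, by a test that flags about 1 in 20 groups by chance. Preconditioning 3 was the highest for UQCRC1 (228 CPM, against 190 to 196 CPM in the others), UQCR11 (12.7 CPM, against 9.67 to 10.0 CPM) and CYC1 (254 CPM, against 188 to 197 CPM). Preconditioning 2 was the highest for ATP5PO (10.7 CPM, against 7.85 to 8.17 CPM). The other groups have 3 libraries each and were not examined in this way.

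The FCCP effect differed with and without preconditioning for 2 genes by the interaction test of edgeR. For UQCRC1, lower in all 3 preconditioning+FCCP than in all 4 preconditioning libraries and higher in all 3 FCCP than in all 3 control libraries, the difference was -0.95 on the log2 scale, and for ATP5MC3 it was -0.73.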

How the results depend on the processing

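The counts of called genes were 22 of 34 for preconditioning against control, 22 for preconditioning+FCCP against FCCP, 1 for FCCP against control, 5 for preconditioning+FCCP against preconditioning, 20 for preconditioning+FCCP against control and 2 for the interaction. They moved by over 1.5 times as follows; the causes were not tested. Preconditioning against control had 3 calls with a set term, where 2.74% of all genes were called. Preconditioning+FCCP against FCCP had 9 with a set term, 13 with the length and GC trend removed and 10 at adjusted p under 0.01. The shares of all genes were 21.7%, 30.3% and 18.9% there. Within sets where a group has a lone library, only medians are given. These were -0.40 for preconditioning against control, -0.38 for preconditioning+FCCP against FCCP, and -0.49 in both sets for preconditioning+FCCP against control. FCCP against control had, in edgeR, 0 with library totals, no filter, the compared groups alone, the trend removed or adjusted p under 0.01 (3 to 9 genes at an unadjusted p under 0.05 in the first 4), 3 with DESeq2, 4 with a set term, 7 within the higher-share set and 12 without control 3, FCCP 1 and preconditioning+FCCP 3. Preconditioning+FCCP against preconditioning had 8 with DESeq2, 3 with limma-voom, 10 with the compared groups alone, 10 without those 3 libraries and 1 at 0.01. Preconditioning+FCCP against control had 11 with library totals, 4 with the compared groups alone, 31 without the 3 libraries, 12 with the trend removed and 3 at 0.01. The interaction had 1 with library totals, 6 with no filter, 8 with a set term, 13 without the 3 libraries and 1 at 0.01. Without the 3 libraries, 18.1% of all genes were called in FCCP against control, 48.2% in preconditioning+FCCP against preconditioning, 51% in preconditioning+FCCP against control and 37.3% in the interaction. In FCCP against control the share was 2.36% with library totals, 2.96% with no filter and 0.111% with the compared groups alone. There it was 7.91% with DESeq2, 5.6% with a set term, 1.86% with the trend removed and 0.137% at 0.01. In preconditioning+FCCP against preconditioning it was 42.6% with DESeq2, 40.5% with limma-voom, 52% with the compared groups alone and 24% at 0.01. In preconditioning+FCCP against control the share was 32% with library totals, 19.2% with the compared groups alone, 31.4% with the trend removed and 14.9% at 0.01. In the interaction it was 18.7% with library totals, 9.38% with no filter and 7.17% at 0.01. Leaving out each library gave 17 to 25, 10 to 29, 0 to 3, 2 to 7, 3 to 27 and 1 to 9 calls, in the order that opens this paragraph. The shares of all genes were then 8.68% to 34.8%, 22.1% to 39.7%, 0.818% to 5.1%, 29% to 35.2%, 17.9% to 38.2% and 11.6% to 26.1%. Library totals moved the median of all genes by 0.11 in preconditioning against control, 0.18 in preconditioning+FCCP against FCCP and 0.20 in preconditioning+FCCP against control.

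Deviations of same-numbered libraries from their group means had correlations of -0.20 to 0.16. The split into library sets also enters these deviations, so they cannot settle whether the replicate numbers pair the libraries. With the replicate block the counts were 18, 17, 0 (5 genes at an unadjusted p under 0.05 in edgeR), 3, 10 and 1 in the same order. Of all genes, 11%, 29.3%, 0.316%, 29.9%, 23.5% and 11.3% were called with it.

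Among the genes followed, the sign turned only where neither value was called. ATP5MC3 in preconditioning against control (-0.0020) was at 0.10 with library totals, 0.067 with no filter, 0.052 with the block, 0.063 without the 3 libraries, 0.35 with the trend removed, and -0.095 to 0.067 with a library left out. With the trend removed, ATP5MC1, COX7A2 and CYC1 were at 0.034, 0.064 and 0.19 in that comparison, and UQCRC1 was at -0.029 within the lower-share set. In preconditioning+FCCP against preconditioning, ATP5MC2 and COX7A2 were at -0.23 and -0.046 with the set term, -0.25 and -0.085 without the 3 libraries, -0.078 and -0.075 with the trend removed, -0.22 and -0.056 within the lower-share set, and -0.25 to 0.15 and -0.085 to 0.27 with a library left out. CYC1 was at 0.11 in preconditioning+FCCP against control within the higher-share set. With a library left out, ATP5MC2 was at -0.017 to 0.47 in FCCP against control and at -0.45 to 0.035 in the interaction, and COX7A2 at -0.38 to 0.018 in the interaction.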
